A study of Mus musculus with 35 samples.

Results

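The replication-dependent histone genes encode the H1 linker and the H2A, H2B, H3 and H4 core proteins that package newly made DNA. They were chosen by name alone, as the table rows whose symbol begins with Hist1h, Hist2h, Hist3h or Hist4h. This gave 40 of the 41096 genes in the count table. By type, 5 were H1, 8 H2A, 11 H2B, 3 H3 and 13 H4 genes. By position, 31 lay in the Hist1 cluster on chromosome 13, 6 in the Hist2 cluster on chromosome 3, 2 in the Hist3 group on chromosome 11, and 1, Hist4h4, on chromosome 6.

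Bulk RNA-seq was made from flow-sorted mouse thymocytes, with 35 libraries in 7 groups of 5. KO DP were CD4+CD8+ double positive cells whose donors, aged 10 weeks, were Mettl3flox/flox; Cd4Cre. WT DP and WT DN were double positive and CD4-CD8- double negative cells of 10-week mice labelled WT, whose genotype is Mettl3flox/wt; Cd4Cre, so these controls carry the transgene and 1 floxed allele. Aged DP and aged DN were sorted at 60 weeks and young DP and young DN at 10 weeks, all from wild-type animals. Cd4Cre is a transgene whose recombinase is driven by the Cd4 promoter. Cd4 RNA was far lower in WT DN than in WT DP but present in every WT DN library, and whether the recombinase was active in DN cells was not tested. The labels name no separate animals, so p-values measure the spread between these libraries, and they do not say whether other lineages were gated out.

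Most messenger RNAs end in a poly(A) tail, but those of this family classically end just after a short stem-loop that the stem-loop binding protein Slbp holds. They are transcribed under the coactivator Npat, made in bulk during S phase and degraded when DNA synthesis stops. Some members also make longer, polyadenylated RNAs, which have been described in cells that have left the cycle. In the thymus, late DN cells and early DP blasts divide rapidly, while most DP cells are small and resting. Whether the libraries were made from poly(A) RNA is not given in the sources used here.

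The stem-loop is shown first, because it is the sequence that defines the family's RNA ends. The histone stem-loop pattern, on the transcript's own strand, was found in 28 of the 40 members' transcripts of GENCODE M21, against 0.222% of all 141767 transcripts. Its arms of 6 bases flank a loop of 4 and were complementary in all 28. Of the 12 members without a match, the transcripts of Hist1h1b, Hist1h2aa, Hist1h2ak, Hist1h2ba, Hist1h2bl, Hist1h4k, Hist2h2ab and Hist2h2bb are annotated only up to the stop codon. The matches found all lay after it, so these transcripts do not show whether the genes have a stem-loop. The stem arms are in capitals below, with 5 bases on either side, and the sequences are from the GRCm38 transcripts.
Hist3h2ba: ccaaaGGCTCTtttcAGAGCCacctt
Hist3h2a: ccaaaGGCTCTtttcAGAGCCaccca
Hist1h1c: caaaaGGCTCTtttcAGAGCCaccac
Hist2h2ac: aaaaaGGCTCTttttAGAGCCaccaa
Hist1h4i: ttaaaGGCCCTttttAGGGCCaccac
The arm GGCTCT was shared by the H1, H2A, H2B and H3 members with a match, while H4 members had GGCCCT or GGTCCT. The form of Hist3h2ba, Hist3h2a and Hist1h1c was the commonest, in 12 members.

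What followed the stem-loop differed between members. The transcript ran on for 11 bases in Hist1h2ab, 46 in Hist1h2bm and 57 in Hist2h2ac, but for 169 in Hist3h2ba, 840 in Hist1h1c and 1643 in Hist3h2a. The canonical poly(A) signal AATAAA stood within the last 50 bases of 11 members' transcripts, including the 4 members with the most counts, and in 26.6% of all transcripts. It is in capitals in the transcript ends of those 4.
Hist2h2be: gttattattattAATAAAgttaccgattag
Hist3h2a: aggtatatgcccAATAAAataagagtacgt
Hist1h1c: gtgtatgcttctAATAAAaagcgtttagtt
Hist3h2ba: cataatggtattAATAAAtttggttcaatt
The Hist2h2be transcript of 2620 bases held this signal and no match to the stem-loop pattern. The 11 members with the signal held 71.7% of all counts on histone genes, and the 29 without it held 28.3%. Nearly all of the first share lay on the 4 members shown, which alone held 69.5%, and the median member had 349 counts with the signal and 251 without it. The 28 members with the stem-loop held 73.6%, 9 of them also carrying the signal. Members annotated only up to the stop codon count here as without stem-loop and without signal, so these shares depend on the annotation. A match is a description of the annotated transcript, and the counts do not show where the RNAs ended.

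Upstream sequence is shown for 4 members called higher in DP in at least 2 of the 3 cohorts described below, with Hist1h4i beside them as a member that was not called in any comparison. Hist2h2be had no entry. The 250 bases before the start site are from RefSeq on GRCm38.p6, with the motif CCAAT, the core promoter motif TATAAA and the motif ATTTGCA (letters of the octamer bound by Oct factors) in capitals on either strand, where no matches overlap.
Hist3h2ba (chr11:58948661-58948910, plus strand): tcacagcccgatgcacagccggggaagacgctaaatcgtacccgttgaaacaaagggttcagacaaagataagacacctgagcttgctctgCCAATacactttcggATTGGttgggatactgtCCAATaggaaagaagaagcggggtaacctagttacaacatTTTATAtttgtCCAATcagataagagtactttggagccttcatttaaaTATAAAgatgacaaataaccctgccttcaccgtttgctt
Hist3h2a (chr11:58954435-58954684, plus strand): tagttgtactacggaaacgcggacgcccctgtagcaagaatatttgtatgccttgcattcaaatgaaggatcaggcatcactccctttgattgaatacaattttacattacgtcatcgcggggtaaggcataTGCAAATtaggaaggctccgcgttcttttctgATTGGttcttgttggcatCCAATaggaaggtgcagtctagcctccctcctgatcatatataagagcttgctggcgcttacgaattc
Hist1h1c (chr13:23738557-23738806, plus strand): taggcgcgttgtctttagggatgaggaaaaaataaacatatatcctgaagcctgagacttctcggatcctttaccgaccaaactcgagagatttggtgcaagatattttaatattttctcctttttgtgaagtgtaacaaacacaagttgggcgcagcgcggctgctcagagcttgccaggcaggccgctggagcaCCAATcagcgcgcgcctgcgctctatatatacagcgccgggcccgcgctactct
Hist2h2ac (chr3:96220881-96221130, minus strand): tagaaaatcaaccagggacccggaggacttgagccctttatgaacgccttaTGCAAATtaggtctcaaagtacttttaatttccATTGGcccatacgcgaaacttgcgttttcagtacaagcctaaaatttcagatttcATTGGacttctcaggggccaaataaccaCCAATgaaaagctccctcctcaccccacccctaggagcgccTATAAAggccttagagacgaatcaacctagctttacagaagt
Hist1h4i (chr13:22041363-22041612, minus strand): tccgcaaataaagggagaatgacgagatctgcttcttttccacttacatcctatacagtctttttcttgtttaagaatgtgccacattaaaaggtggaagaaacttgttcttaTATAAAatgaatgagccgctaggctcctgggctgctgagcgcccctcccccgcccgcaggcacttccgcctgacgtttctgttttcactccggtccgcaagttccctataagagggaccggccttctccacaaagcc
The Hist3h2ba window held 4 CCAAT matches, from -159 to -76 (leftmost base, with the start site as base 1). Counted over windows of 300 bases that add 50 bases after the start, CCAAT stood in 28 of the 37 member promoters in the RefSeq table (75.7%) and in 37.4% of all 32851. TATAAA stood in 62.2% of member promoters and 13.6% of all, and ATTTGCA in 27.0% and 4.02%. Matches were counted at any position. Those of TATAAA stood at -250 in Hist1h4f, -137 in Hist1h4i, -87 and -39 in Hist3h2ba and 42 in Hist1h4a, for example, so they show the letters and not a working element. The 9 member promoters without CCAAT, Hist1h4i among them, were all of H4 genes. No match says only that these letters are absent from this window.

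Histone genes took few reads. Total counts per library ran from 12391908 to 18820157, of which 319 to 2602 fell on the 40 members. Together they held 56745 of 519087885 counts, or 0.0109%. Hist1h2aa, Hist1h4m, Hist2h2ab, Hist2h2bb and Hist2h3b had no count in any library. By counting error alone, that allows a level of up to 0.00578 CPM (counts scaled to library size) over all libraries. Each of these genes overlaps another gene of the table. Stretches of 50 bases shared with other genes made up from 23.8% of the Hist1h2aa transcript to 100% of Hist2h2bb and Hist2h3b. How reads that fit more than 1 gene were treated is not given in the sources used here, so 0 counts set no upper bound on their level. A further 9 members held fewer than 100 counts in all and 9 held more than 1000. The 4 most counted were Hist2h2be with 12677 counts, Hist3h2a with 10830, Hist1h1c with 8304 and Hist3h2ba with 7651, together 69.5% of the family's counts. By type, H2B took 43.1%, H2A 26.9%, H1 17.7%, H4 11.6% and H3 0.673%. These shares cover only the genes that the count table lists under such symbols. Hist1h2bc had no row, and only 3 H3 genes were listed, so the shares by type depend on the content of the table.

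Levels are given as CPM scaled by TMM, edgeR's correction for library composition. Per kilobase of gene length in the table, Hist3h2ba led with a mean level of 24.6 CPM over all libraries, a mean that pools 20 DP and 15 DN libraries. Next came Hist1h1c at 10.4, Hist1h4i at 10.1, Hist3h2a at 9.87, Hist1h2bm at 9.64 and Hist2h2be at 9.43 CPM per kilobase. By group, Hist3h2ba averaged 36.3 CPM per kilobase in young DP and 5.995 in young DN, where Hist1h4i averaged 10.2 and Hist1h2bm 10.1. In aged DN Hist1h4i averaged 7.62 and Hist3h2ba 5.31, and in WT DN they averaged 14.3 and 10.1 CPM per kilobase. The H3 genes with a count, Hist1h3f and Hist1h3d, stood at 0.796 and 0.194 CPM per kilobase. Lengths in the table differ from GENCODE M21 for 22 members, so levels per kilobase depend on the annotation. Members differed in how much sequence they share with other genes. Stretches of 50 bases shared with other genes made up 0% of the Hist2h2be, Hist1h1a and Hist1h1b transcripts. They made up 8.54% of Hist1h1c, 22.1% of Hist3h2ba and 31.5% of Hist3h2a. For Hist2h2ac the share was 55.0%, for H4 transcripts it reached 89.8%, and for Hist2h2bb and Hist2h3b it was 100%. Values of those genes are therefore uncertain where reads could be split between copies.

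**Figure D1:**
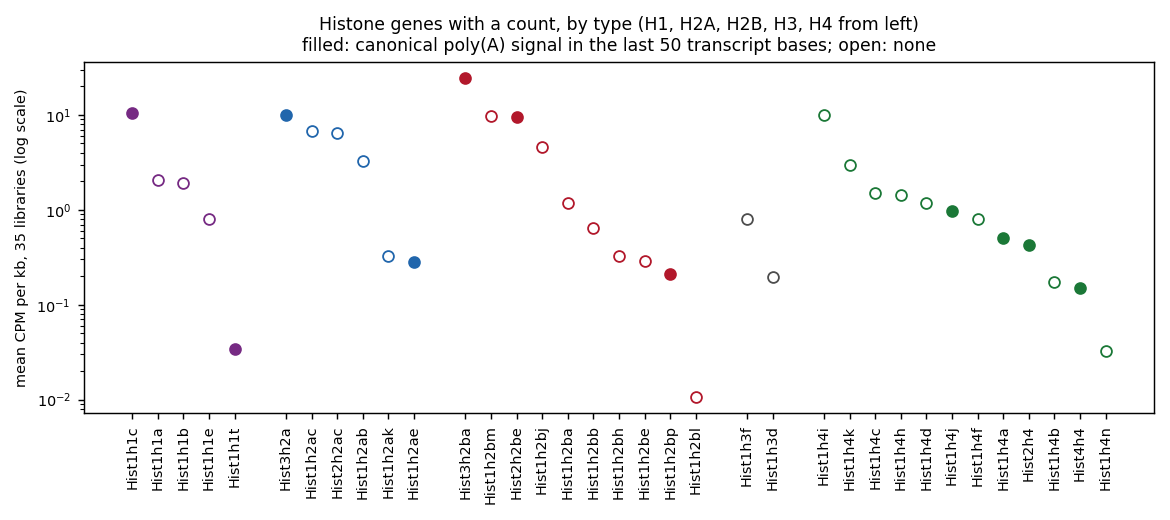
Mean level of each histone gene with a count, in CPM per kilobase of table length over 35 libraries, on a log axis and ordered within each type. Each mean pools 20 DP and 15 DN libraries. Hist3h2ba stands highest at 24.6 by this pooled mean, though in young DN it averages 5.995 against 10.2 for Hist1h4i, and filled points, whose transcript has a canonical poly(A) signal in its last 50 bases, include Hist3h2ba, Hist1h1c, Hist3h2a and Hist2h2be.

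Summed over the 40 members, DP libraries carried more histone RNA than DN libraries of the same cohort. The sum was 152 ± 17.6 CPM in WT DP and 90.8 ± 15.98 in WT DN (SD, n = 5 each). It was 136 ± 6.47 CPM in aged DP and 51.4 ± 16.9 in aged DN, and 145 ± 19.9 in young DP and 69.2 ± 6.82 in young DN. KO DP stood at 128 ± 33.6 CPM. In each cohort every DP library lay above every DN library. In bulk samples, more cells that express a gene and more RNA of it per cell cannot be told apart.

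Types did not contribute alike to that difference. H2B members summed to 70.1 ± 11.2 CPM in WT DP and 31.1 ± 4.92 in WT DN, to 67.0 ± 3.09 in aged DP and 19.5 ± 7.69 in aged DN, and to 65.7 ± 6.87 in young DP and 26.7 ± 2.49 in young DN. H4 members summed to 13.98 ± 3.14 CPM in WT DP and 16.3 ± 2.28 in WT DN, and to 11.6 ± 2.32 in young DP and 12.5 ± 2.23 in young DN, with overlap in both. In the aged cohort H4 stood at 13.6 ± 2.44 CPM in DP and 8.63 ± 3.32 in DN, also with overlap. The H2A sum overlapped in the WT cohort alone, at 22.3 to 39.0 CPM in WT DN against 32.1 to 38.1 in WT DP. The H3 sum, over the 3 H3 genes listed, was at most 2.08 CPM in any library. These sums are descriptions and carry no test.

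**Figure D2:**
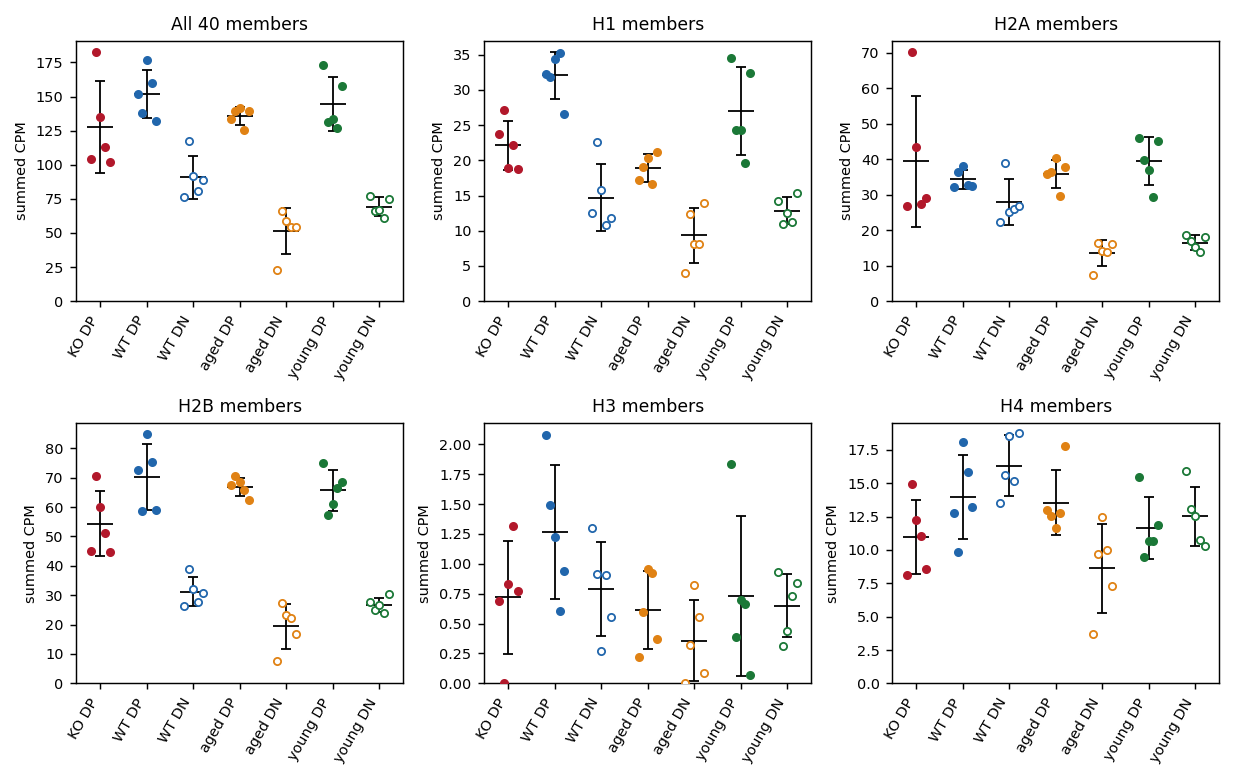
Summed CPM of all 40 members and of each histone type, 1 point per library, filled for DP and open for DN, with the mean and SD (bars, n = 5) of each group. The means of H1, H2A and H2B are higher in DP than in DN of each cohort. H2A overlaps in the WT cohort, where WT DN reaches 39.0 CPM against 32.1 to 38.1 in WT DP, H4 overlaps in every cohort and H3 stays at or below 2.08 CPM.

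The comparison of DP with DN asks how the family's RNA differs between the stages, and it can be made in 3 cohorts that share no library. Hist3h2ba, Hist2h2be, Hist3h2a and Hist1h1c were called higher in DP in all 3, called meaning a Benjamini-Hochberg adjusted p under 0.05 over all genes tested with edgeR's quasi-likelihood test, 2-sided. In young cells, 17 of the 40 members passed the filter on low counts, and 6 were called higher in DP and 0 lower. Across all genes, 70.4% of 13772 tested were called, 33.9% higher and 36.5% lower. The members' share called higher, 35.3%, was thus close to that of all genes, while their share called lower was below it. With 1 library left out, up to 1 member was called lower in young DP. In aged cells, 13 members were tested and 6 (46.2%) called higher, with 43.2% of all 13596 genes called, 18.6% higher and 24.6% lower. In the WT cohort, 20 were tested and 5 (25%) called higher, with 63.9% of all 13490 genes called, 30.2% higher and 33.7% lower. The median log2 change over tested members was 0.67 in young, 0.91 in aged and 0.50 in WT cells, beside -0.01, -0.07 and -0.02 over all genes tested. A member could pass the filter through its higher stage alone and members low in both did not pass, so these medians describe only the tested members, and the aged one was 0.47 without the libraries that stand apart (aged DN 1 and 5 and aged DP 1 and 5, described below).

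Among the H2B genes, Hist3h2ba (chromosome 11, 60606984 to 60607597, plus strand, 1 exon, positions of the C57BL/6NJ strain assembly as in the table) differed most. It had 24.8, 18.3, 20.2, 22.6 and 25.5 CPM in young DP, against 4.33, 2.64, 2.99, 3.64 and 4.80 in young DN. It had 17.8, 21.8, 23.7, 21.7 and 19.01 CPM in aged DP, against 0.705, 4.79, 3.603, 3.38 and 3.82 in aged DN. It had 25.3, 22.5, 29.6, 31.6 and 22.2 CPM in WT DP, against 4.71, 10.1, 5.65, 3.68 and 6.87 in WT DN. Every DP library lay above every DN library, and the same held over all 20 DP libraries, KO DP included, whose lowest was 12.03, against 10.1 as the highest of 15 DN libraries. The log2 change was 2.62 ± 0.17 in young (SE, adjusted p = 2.45e-09), 2.66 ± 0.39 in aged (adjusted p = 0.000576) and 2.10 ± 0.24 in WT cells (adjusted p = 5.84e-06), by edgeR.

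Hist2h2be, an H2B gene of the Hist2 cluster (chromosome 3, 100589347 to 100591966, plus strand), had 39.4, 32.5, 34.7, 37.2 and 34.9 CPM in young DP, against 13.3, 15.7, 15.3, 14.1 and 16.4 in young DN. Its levels were 40.9, 40.5, 37.3, 37.3 and 36.2 CPM in aged DP, against 4.79, 16.1, 13.3, 12.8 and 8.996 in aged DN. Aged DN library 1 was the lowest of all 35 for this gene. In the WT cohort it ran from 26.1 to 42.4 CPM in DP, against 12.8 to 17.3 in DN. Over all libraries the lowest DP value was 21.5 CPM, against 17.3 as the highest DN value, so the stages did not overlap. The log2 change was 1.27 ± 0.09 in young (SE, adjusted p = 7.49e-09 by edgeR), 1.77 ± 0.27 in aged (adjusted p = 0.000693) and 1.10 ± 0.15 in WT cells (adjusted p = 2.97e-05). Its neighbour Hist2h2ac, an H2A gene on the minus strand, starts 238 bases away and points the other way, so both read outward from a shared interval.

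The other tested H2B genes were not called, apart from Hist1h2be in the WT cohort. Hist1h2bm, the second H2B gene per kilobase, averaged 3.24 ± 1.37 CPM in young DP and 3.85 ± 1.35 in young DN (log2 -0.22, edgeR adjusted p = 0.531), with overlap. It averaged 3.32 ± 0.343 CPM in aged DP and 2.01 ± 1.30 in aged DN (log2 0.72, edgeR adjusted p = 0.195), and its WT log2 change was 0.40 (adjusted p = 0.125). Hist1h2bj had log2 changes of -0.22 in young, 0.72 in aged and -0.27 in WT cells (edgeR adjusted p of 0.613, 0.154 and 0.518), with overlap in each. Hist1h2be was called in the WT cohort alone, at 1.48 ± 0.568 CPM in DP and 0.581 ± 0.211 in DN (log2 1.36 ± 0.43, edgeR adjusted p = 0.0138), and the groups overlapped. It had 11 to 29 counts per library in WT DP and 4 to 15 in WT DN. It thus passed the filter on low counts through DP alone, and its call rests on few reads. Its difference between cohorts was not called in the cohort by stage test (log2 0.67, edgeR adjusted p = 0.558).

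Among the H2A genes, Hist3h2a (chromosome 11, 60612691 to 60614836, plus strand) had 34.6, 31.8, 30.1, 21.9 and 32.5 CPM in young DP, against 11.5, 12.1, 9.85, 9.10 and 11.99 in young DN. It had 26.4, 29.2, 32.1, 21.4 and 25.9 CPM in aged DP, against 5.78, 11.3, 8.79, 9.24 and 11.7 in aged DN. In neither cohort did the stages overlap. In the WT cohort it had 21.8, 25.9, 26.5, 20.1 and 24.3 CPM in DP, against 11.2, 24.8, 12.4, 14.7 and 16.1 in DN, where WT DN library 2 reached into the DP range. The log2 change was 1.49 ± 0.13 in young (SE, adjusted p = 8.41e-08 by edgeR), 1.52 ± 0.21 in aged (adjusted p = 0.000369) and 0.61 ± 0.20 in WT cells (adjusted p = 0.0179).

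Hist2h2ac averaged 4.29 ± 1.27 CPM in young DP and 1.64 ± 0.465 in young DN, and the stages did not overlap (log2 1.40 ± 0.27, edgeR adjusted p = 0.000294). It averaged 4.73 ± 0.832 CPM in aged DP and 2.08 ± 1.28 in aged DN (log2 1.18 ± 0.39, edgeR adjusted p = 0.0322), a call lost when any of 7 single libraries (aged DP 1, 3, 4 or 5, aged DN 2, 3 or 4) was left out, with adjusted p up to 0.0658. It was not called in the WT cohort (log2 0.81 ± 0.34, edgeR adjusted p = 0.0515), but was without WT DN library 2 (log2 1.14, edgeR adjusted p = 0.0037), WT DP 4 (0.90, 0.0489) or WT DP 5 (0.93, 0.0433). Per kilobase, the level of Hist2h2be over that of Hist2h2ac had a median of 1.60 over 20 DP libraries and 1.41 over 15 DN libraries, with ranges of 0.907 to 3.53 and 0.429 to 2.91, so the pair's balance overlapped between stages.

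Among H2A genes of the Hist1 cluster, Hist1h2ac averaged 4.04 ± 1.43 CPM in WT DP and 6.09 ± 0.992 in WT DN (log2 -0.57 ± 0.24, edgeR adjusted p = 0.0543), and it was called lower in DP without WT DN library 2 (log2 -0.63, adjusted p = 0.0389) or without WT DP 4 (log2 -0.74, adjusted p = 0.013). Hist1h2ab averaged 1.67 ± 0.51 CPM in WT DP and 2.96 ± 1.10 in WT DN (log2 -0.81 ± 0.34, edgeR adjusted p = 0.0504). In young cells neither was called, with log2 changes of 0.19 and 0.67.

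Among the H1 genes, Hist1h1c, which encodes a linker histone variant found in most tissues (chromosome 13, 21960515 to 21963018, plus strand), had 26.0, 18.7, 22.2, 17.3 and 24.6 CPM in young DP, against 9.60, 8.93, 9.66, 9.98 and 11.99 in young DN. It had 14.2, 17.4, 18.0, 13.9 and 17.3 CPM in aged DP, against 3.31, 11.0, 6.26, 7.24 and 12.3 in aged DN. It had 28.6, 27.9, 27.95, 31.1 and 24.1 CPM in WT DP, against 9.42, 17.9, 10.9, 9.11 and 9.20 in WT DN. No DP library of a cohort fell into its DN range, and WT DN library 2 was again the highest of its group. The log2 change was 1.14 ± 0.13 in young (SE, adjusted p = 2.13e-06 by edgeR), 1.00 ± 0.31 in aged (adjusted p = 0.0267) and 1.32 ± 0.19 in WT cells (adjusted p = 4.5e-05). The aged call was lost without aged DP 2, 3 or 5 or aged DN 3 or 4, with adjusted p up to 0.0595.

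Hist1h1a was called in young cells alone, at 2.25 ± 1.51 CPM in DP and 1.06 ± 0.397 in DN with overlap (log2 1.10 ± 0.47, edgeR adjusted p = 0.0489). Leaving out any of 7 single libraries (young DP 1, 2 or 5, young DN 1, 2, 3 or 4) ended this call, with adjusted p up to 0.155. Hist1h1b, another linker histone, averaged 2.04 ± 1.14 CPM in young DP and 1.29 ± 0.79 in young DN (log2 0.67, edgeR adjusted p = 0.224).

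The H4 genes were mostly not called. Hist1h4i, the highest of them, had 7.96, 5.75, 4.91, 6.57 and 6.18 CPM in young DP, against 9.33, 9.31, 7.48, 5.68 and 5.25 in young DN (log2 -0.22 ± 0.19, edgeR adjusted p = 0.328). Its WT values were 5.87, 5.21, 10.2, 8.05 and 7.65 CPM in DP, against 9.04, 8.26, 13.02, 8.56 and 12.9 in DN (log2 -0.46 ± 0.22, edgeR adjusted p = 0.0803). In the aged cohort it had 6.34, 6.88, 6.43, 7.54 and 12.2 CPM in DP, against 2.33, 6.93, 9.86, 6.62 and 1.95 in DN (log2 0.51 ± 0.43, edgeR adjusted p = 0.37). The stages overlapped in all 3 cohorts. The WT difference was called lower in DP without WT DN library 2 (log2 -0.53, edgeR adjusted p = 0.0375) or without WT DP 3 (log2 -0.58, adjusted p = 0.0354). Hist1h4j was called in aged cells, at 0.995 ± 0.263 CPM in DP and 0.200 ± 0.164 in DN with no overlap (log2 2.23 ± 0.55, edgeR adjusted p = 0.00894). Hist1h4j held 391 counts over all libraries, with 0 to 6 per library in aged DN and 11 to 23 in aged DP. It thus passed the filter of that comparison through DP alone, and its call rests on few reads. In young cells its counts overlapped, at 5 to 20 per library in DP and 9 to 17 in DN. Hist1h4k was not called (log2 -0.81 in young cells, edgeR adjusted p = 0.0869), and Hist1h4c passed the filter in no young or aged comparison of stages. Of the H3 genes, Hist1h3f was tested in the WT cohort alone among these comparisons, at 1.24 ± 0.573 CPM in DP and 0.607 ± 0.322 in DN (log2 1.05, edgeR adjusted p = 0.0828).

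**Figure D3:**
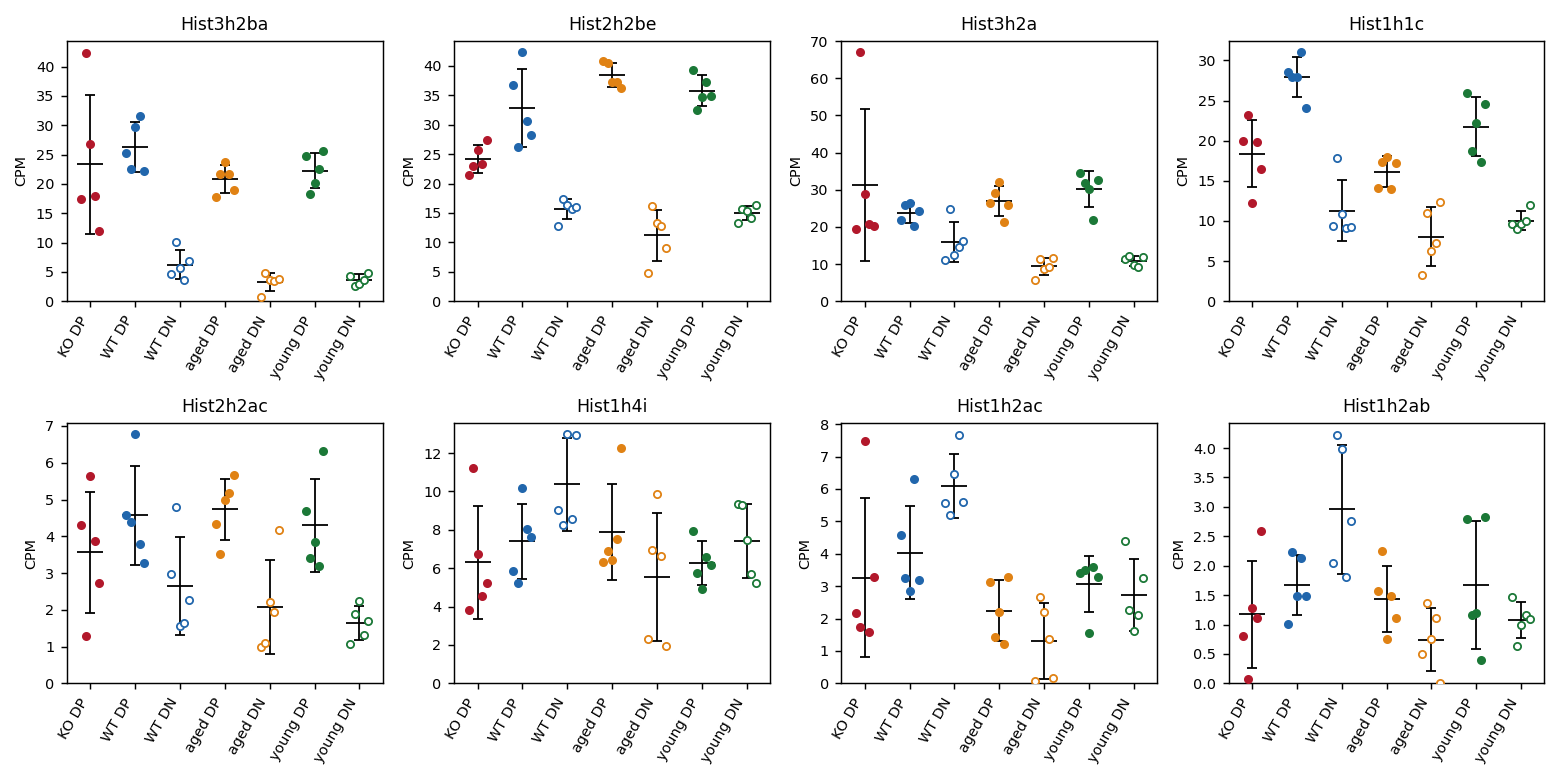
CPM of 8 histone genes in each library, filled for DP and open for DN, with the mean and SD of each group (bars, n = 5). Hist3h2ba and Hist2h2be do not overlap between the 20 DP and 15 DN libraries, Hist1h4i overlaps in every cohort, and Hist1h2ac and Hist1h2ab are highest in WT DN, with means of 6.09 and 2.96 CPM.

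**Figure D4:**
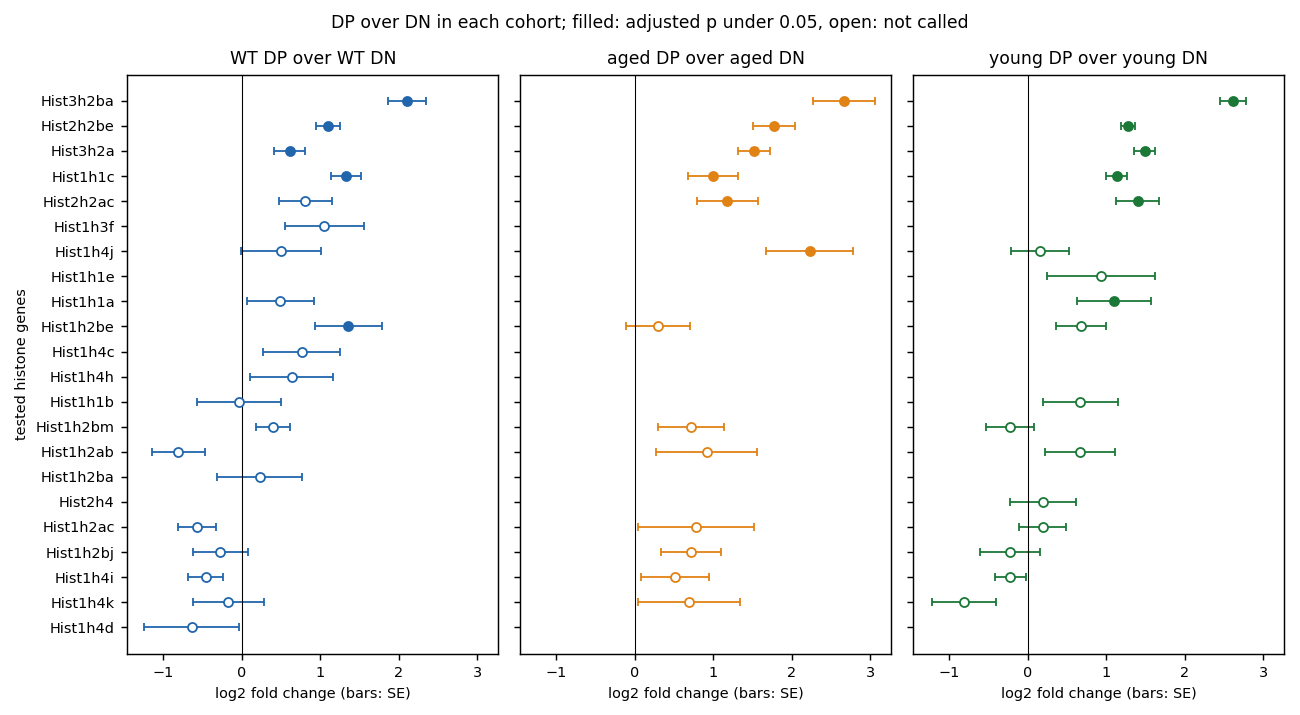
Log2 fold change of DP over DN for each tested histone gene in the WT, aged and young cohorts, with the SE as bars and filled points for adjusted p under 0.05. Hist3h2ba stands farthest right at 2.10, 2.66 and 2.62, and no filled point lies left of 0.

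The stages were also set against lists of the cell cycle and of histone supply. Most tested S phase genes were lower in young and WT DP, but few in aged DP. Of 23 tested S phase genes, 22 were lower and 0 higher in young DP, 22 lower and 0 higher in WT DP, and 2 lower and 0 higher in aged DP. Over all genes tested, 36.5%, 33.7% and 24.6% were called lower in young, WT and aged DP. The helicase subunit Mcm6 stood at 324 ± 39.7 CPM in young DP and 901 ± 46.8 in young DN (log2 -1.45, edgeR adjusted p = 4.34e-10). The S phase list summed to 3544 ± 672 CPM in WT DP and 7436 ± 667 in WT DN, to 3699 ± 434 in aged DP and 4458 ± 2131 in aged DN, and to 3344 ± 408 in young DP and 6530 ± 374 in young DN. Of 20 tested genes of G2 and mitosis, 10 were higher in young, 4 in aged and 5 in WT DP and 0 lower in each, beside 33.9%, 18.6% and 30.2% of all genes called higher, so in aged and WT cells most did not pass. Cenpf, a kinetochore protein, was the member called in all 3 with the smallest p in aged and WT cells, at 304 ± 67.9 CPM in young DP and 199 ± 20.1 in young DN (log2 0.63, edgeR adjusted p = 0.000246).

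The most counted 4 members and the other 36 differed in how they stood beside these lists. The 4 summed to 111 ± 10.8 CPM in WT DP and 49.0 ± 12.4 in WT DN, to 102 ± 7.25 in aged DP and 31.8 ± 10.6 in aged DN, and to 110 ± 10.9 in young DP and 39.6 ± 3.27 in young DN. The other 36 summed to 41.0 ± 7.05 CPM in WT DP and 41.8 ± 4.62 in WT DN, to 33.6 ± 4.54 in aged DP and 19.5 ± 7.34 in aged DN, and to 34.6 ± 9.29 in young DP and 29.6 ± 5.54 in young DN. The share of the 4 in a library's histone counts ran from 71.0% to 74.7% in WT DP and 49.4% to 59.9% in WT DN, and from 72.2% to 80.1% in young DP and 50.1% to 60.7% in young DN. It ran from 70.5% to 78.5% in aged DP and 54.1% to 67.8% in aged DN. In that cohort the other 36 were also higher in DP without overlap, at 30.4 to 41.2 CPM against 7.89 to 27.1 in DN. The 4 were picked for their counts, so these values are a description.

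**Figure D5:**
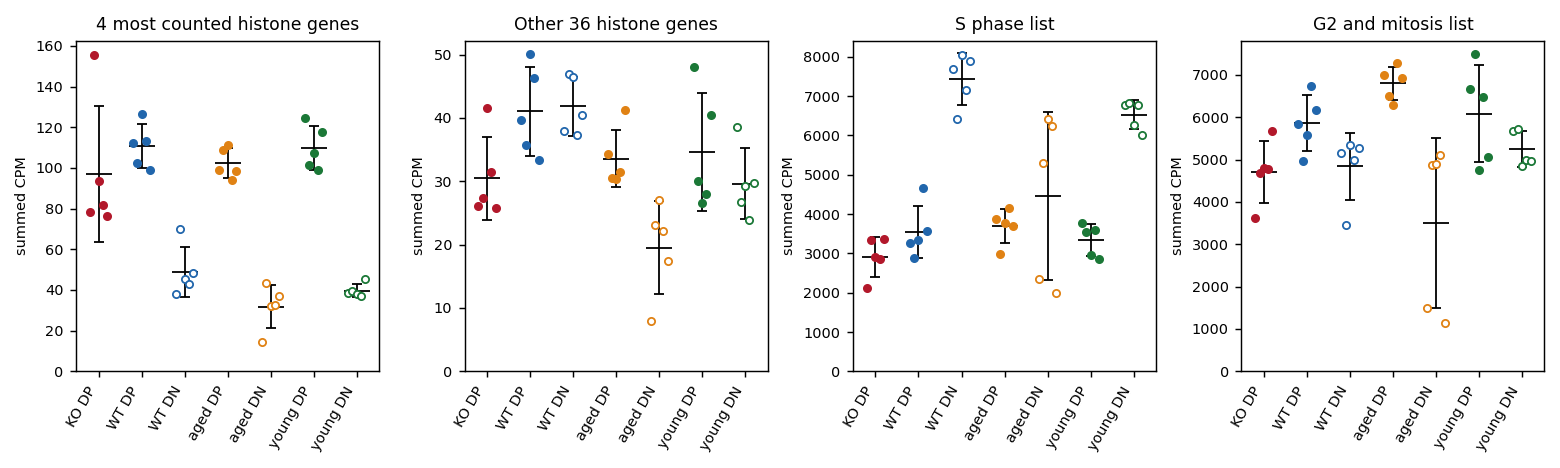
Summed CPM of the 4 most counted histone genes, of the other 36, of the S phase list and of the G2 and mitosis list, 1 point per library, filled for DP and open for DN, with the mean and SD of each group (bars, n = 5). The 4 genes are higher in DP in each cohort, the other 36 overlap in the WT and young cohorts, and the S phase list is lower in DP in those cohorts, at 3544 against 7436 CPM (WT) and 3344 against 6530 CPM (young).

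Of 21 genes that process or activate histone RNA, 6 were higher and 7 lower in young DP, 5 higher and 2 lower in aged DP, and 4 higher and 6 lower in WT DP. In each cohort this was a smaller share than that of all genes tested, of which 70.4%, 43.2% and 63.9% were called in young, aged and WT cells. Slbp, the stem-loop binding protein, stood at 135 ± 27.2 CPM in young DP and 174 ± 12.2 in young DN (log2 -0.35, edgeR adjusted p = 0.0111) and was lower in WT DP too (log2 -0.55, adjusted p = 0.00739). In aged cells it was not called (log2 0.17, edgeR adjusted p = 0.623). Npat was not called in young, aged or WT cells (log2 -0.16, 0.18 and 0.07). Cpsf2 and Cpsf3, subunits of the cleavage complex that also cuts histone RNA, were lower in DP in all 3 cohorts, with log2 changes from -0.74 to -0.32. Zcchc6, a uridylyltransferase that marks RNAs for decay, and Hinfp, an activator of H4 genes, were higher in all 3, with log2 changes from 0.62 to 1.06.

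Histone chaperones were lower in DP for 10 of 16 in young, 3 in aged and 12 in WT cells, and 1 was higher in each. Over all genes tested, 36.5% were lower in young, 24.6% in aged and 33.7% in WT DP, while 33.9%, 18.6% and 30.2% were higher. Ipo4, an importin that carries H3 and H4, stood at 20.7 ± 3.34 CPM in young DP and 114 ± 7.05 in young DN (log2 -2.45, edgeR adjusted p = 2.2e-11). Replacement histones, most of which are also made outside S phase with poly(A) tails, were mixed. In young DP 5 of 10 were higher and 4 lower, in aged DP 3 of 9 higher and 0 lower, and in WT DP 3 of 9 higher and 3 lower. H2afv, an H2A.Z gene, stood at 158 ± 31.5 CPM in young DP and 89.8 ± 9.11 in young DN (log2 0.83, edgeR adjusted p = 1.22e-05), while its relative H2afz was lower at 327 ± 58.9 and 471 ± 34.0 CPM (log2 -0.50, adjusted p = 0.000381). Of a list of RNAs that carry no poly(A) tail, mostly snoRNAs, 31 of 129 genes were tested in young cells, with 0 higher and 9 lower in DP. In aged cells 1 of 27 was higher and 4 lower, and in WT cells 1 of 31 was higher and 6 lower. In each cohort the share of these RNAs called lower was below that of all genes.

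Markers of the stage ran with the labels. All 8 DN stage genes were lower in DP in each cohort, and the 7 DP stage genes were higher in young and WT DP and 6 of 7 in aged DP. Markers of other lineages were lower in DP as well. The B cell list was lower for 8 of 8 in young and WT and 6 of 8 in aged DP, and its summed level ran from 20.1 to 24.6 CPM in young DP, against 133 to 366 in young DN. In aged DN it ran from 533 to 9150 CPM, with aged DN library 5 the highest, and in WT DN from 109 to 2900, with WT DN library 2 the highest. Dendritic cell genes peaked in the same libraries, at 17023 and 9212 CPM. Gamma delta T cell genes reached 5843 CPM in aged DN library 1, against 513 to 683 in the other 4. Without aged DN 1 and 5 and aged DP 1 and 5, which were highest of their groups in a list of other cells, the same 6 members were called higher in aged DP. Without WT DN 2, 6 were called higher and 2 lower in WT DP. The part of other cells in the stage differences was otherwise not tested.

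The comparisons of aged with young cells ask whether histone RNA differs at 60 weeks. They share the young libraries with the cohort comparisons below. In DN cells, 0 of 14 tested members were called by edgeR, 3 had an unadjusted p under 0.05, and DESeq2 called 1. Across all genes 0.267% of 13873 were called, 0.159% higher and 0.108% lower. Hist2h2be averaged 11.2 ± 4.39 CPM in aged DN and 14.96 ± 1.23 in young DN (log2 -0.38 ± 0.27, edgeR adjusted p = 0.367). Hist3h2ba averaged 3.26 ± 1.53 and 3.68 ± 0.898 CPM (log2 -0.14 ± 0.41, edgeR adjusted p = 0.841), and the sign turned without aged DN library 1 (log2 0.11). Of the 14 tested, 11 had a negative log2 change, with a median of -0.39, beside 0.02 over all genes tested. Without aged DN libraries 1 and 5, 12 of 18 were negative, with a median of -0.21. Aged DN libraries 1 and 5 were also the lowest of their group in the S phase list, at 2343 and 2002 CPM against 5311 to 6406 in the other 3. The part of these libraries in the lower values was not tested.

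In DP cells, 0 of 17 tested members were called between ages by edgeR, 2 had an unadjusted p under 0.05, and DESeq2 called 0. Across all genes 0.942% of 13059 were called. Hist2h2be averaged 38.4 ± 2.11 CPM in aged DP and 35.7 ± 2.64 in young DP (log2 0.11 ± 0.08, edgeR adjusted p = 0.657). Hist1h1c averaged 16.1 ± 1.93 CPM in aged DP and 21.8 ± 3.70 in young DP, with overlap (log2 -0.42 ± 0.13, edgeR adjusted p = 0.183). Hist1h1a averaged 0.885 ± 0.35 and 2.25 ± 1.51 CPM (log2 -1.34 ± 0.49, adjusted p = 0.271). Hist3h2a and Hist3h2ba differed by -0.15 ± 0.13 and -0.09 ± 0.12 on the log2 scale. Of 7 tested B cell genes 4 were higher in aged DP and of 6 dendritic cell genes 5, with a summed B cell level of 32.8 to 487 CPM in aged DP, against 20.1 to 24.6 in young DP. Their part in the histone values was not tested. A p that misses the threshold does not show that levels were alike.

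The test of whether the stage difference itself changed with age called 0 of 19 members by edgeR, with 1 at an unadjusted p under 0.05 and 0 by DESeq2, while 0.00679% of all 14722 genes were called. For Hist3h2ba the difference between the stage effects was 0.05 ± 0.41 on the log2 scale, for Hist2h2be 0.50 ± 0.28 and for Hist1h1c -0.13 ± 0.34 (SE, adjusted p of 0.957, 0.372 and 0.858 by edgeR).

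Mettl3 methylates adenosines in RNA, and KO DP against WT DP addresses whether histone RNA depends on it in DP cells. Mettl3 itself had 49.4, 61.5, 49.9, 51.6 and 48.0 CPM in KO DP, against 49.7, 44.1, 53.4, 54.5 and 51.1 in WT DP (log2 0.05, edgeR adjusted p = 0.862). A gene-level count includes reads outside the deleted part, so it checks neither the deletion nor the labels. Of 19 tested histone genes 0 were called by edgeR, 3 had an unadjusted p under 0.05, and DESeq2 called 1. Across all genes 1.59% of 13233 were called, 0.113% lower. The members' log2 changes were negative for 17 of 19, with a median of -0.40, beside -0.01 over all genes tested. Other lists had negative medians too, at -0.32 for G2 and mitosis, -0.25 for S phase and -0.22 for genes that process or activate histone RNA. The median of replacement histones was 0.04. A negative median was thus not particular to histone genes. KO DP library 2 had a count in 12306 genes, against 15869 to 19677 in every other library, and Hist1h1e, Hist1h2be, Hist1h3f, Hist1h4j and Hist1h4k had 0 counts in it. Without it, 19 of 21 tested members were negative, with a median of -0.41.

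Hist1h1c had 19.99, 23.2, 12.2, 19.8 and 16.5 CPM in KO DP, against 28.6, 27.9, 27.95, 31.1 and 24.1 in WT DP. Every KO DP library lay below every WT DP library, yet the gene was not called (log2 -0.60 ± 0.17, edgeR adjusted p = 0.12). It was called lower by DESeq2 (log2 -0.61, adjusted p = 0.0266) and by edgeR without KO DP library 2 (log2 -0.71, adjusted p = 0.0115). Hist2h2be had 21.5, 22.9, 25.7, 23.3 and 27.3 CPM in KO DP, against 36.7, 26.1, 42.4, 30.7 and 28.3 in WT DP, where KO DP library 5 reached into the WT range (log2 -0.44 ± 0.15, edgeR adjusted p = 0.205).

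KO DP library 2 was also the highest KO DP library for both Hist3 genes. Hist3h2a had 19.3, 67.1, 28.9, 20.7 and 20.3 CPM in KO DP, against 21.8, 25.9, 26.5, 20.1 and 24.3 in WT DP. Its log2 change was 0.41 ± 0.32 (edgeR adjusted p = 0.577) and turned to -0.10 without that library. Hist3h2ba had 17.4, 42.3, 26.9, 17.9 and 12.03 CPM in KO DP, against 25.3, 22.5, 29.6, 31.6 and 22.2 in WT DP (log2 -0.16 ± 0.28, edgeR adjusted p = 0.831), and the sign turned without KO DP 5. Markers of other lineages were higher in KO DP, with 8 of 8 B cell genes called and a summed level of 85.2 to 250 CPM in KO DP, against 22.1 to 43.5 in WT DP. Of 5 tested dendritic cell genes 4 were higher, and of the neutrophil genes 3 of 3. Of 7 tested DN stage genes 3 were higher in KO DP and 0 lower, with a summed level of 376 ± 173 CPM in KO DP and 155 ± 24.1 in WT DP. None of 23 S phase or 20 G2 and mitosis genes was called. The S phase list summed to 2918 ± 506 CPM in KO DP and 3544 ± 672 in WT DP, and the G2 and mitosis list to 4714 ± 729 and 5863 ± 662.5 CPM. The part of DN cells and of other lineages in the histone values was not tested.

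The comparisons of WT with young cells set heterozygous mice with the Cd4Cre transgene against wild-type mice of the same age. In DN cells, 2 of 16 tested histone genes were called, both H2A genes of the Hist1 cluster and both higher in WT DN, while 25.1% of all 13702 genes were called, 14.2% higher. Hist1h2ac had 5.58, 5.18, 6.45, 7.66 and 5.58 CPM in WT DN, against 4.40, 2.27, 1.62, 2.11 and 3.24 in young DN. Hist1h2ab had 2.04, 4.22, 3.98, 1.81 and 2.76 CPM in WT DN, against 1.47, 0.629, 0.997, 1.17 and 1.10 in young DN. The groups did not overlap in either gene. The log2 change was 1.13 ± 0.26 for Hist1h2ac (SE, adjusted p = 0.0108 by edgeR) and 1.43 ± 0.34 for Hist1h2ab (adjusted p = 0.0115). Both calls ended in the fit over all 35 libraries, with adjusted p of 0.133 and 0.0975.

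The other H2A genes were not called between these groups, with Hist3h2a at 15.8 ± 5.36 CPM in WT DN and 10.9 ± 1.35 in young DN (log2 0.51, edgeR adjusted p = 0.0898, and 0.049 without WT DN 1). Hist3h2ba was at 6.20 ± 2.47 and 3.68 ± 0.898 CPM (log2 0.72, edgeR adjusted p = 0.0787, and 0.0395 without WT DN 4). Hist1h4i averaged 10.4 ± 2.40 CPM in WT DN and 7.41 ± 1.93 in young DN (log2 0.45, edgeR adjusted p = 0.134). Hist2h2be was at 15.6 ± 1.72 and 14.96 ± 1.23 CPM (log2 0.03, adjusted p = 0.867). Beside these, 9 of 23 S phase genes and 6 of 10 replacement histones were higher in WT DN and 0 were lower, and Slbp was higher (log2 0.27, edgeR adjusted p = 0.0227). Of 5 tested NK cell genes 3 were higher too, and their part in the histone values was not tested. Strain background, housing and sort day are not given in the labels and cannot be told apart from the genotype here.

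In DP cells, 0 of 20 tested members were called between WT and young by edgeR, 4 had an unadjusted p under 0.05, DESeq2 called 0, and 0.589% of all 13083 genes were called, 0.229% higher and 0.359% lower. Hist1h1c averaged 27.9 ± 2.49 CPM in WT DP and 21.8 ± 3.70 in young DP (log2 0.35 ± 0.12, edgeR adjusted p = 0.183), with overlap. The cohort by stage test called 0 of 23 members by edgeR, with 2 at an unadjusted p under 0.05, and 0.682% of all 14655 genes. DESeq2 called 1, Hist3h2a, whose stage difference was smaller in the WT cohort (log2 -0.87, adjusted p = 0.0434). By edgeR that gene stood at -0.88 ± 0.25 on the log2 scale (adjusted p = 0.104).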

How the data were processed

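Flow-sorted thymocyte RNA was sequenced in 35 libraries. The authors deposited whole-number counts per gene. STAR 2.5.1, HTSeq 2.0.3, Subread, Trim Galore 0.4, bcl2fastq and DESeq2 appear in the submitters' processing notes, with builds mm10 and GRCm39, with no role for each, while gene identifiers are of the C57BL/6NJ strain assembly. Strand and RNA selection are not given in the sources used here. Depth is 12391908 to 18820157 counts per library.

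Groups were compared alone with edgeR 4.0.16 (R 4.3.3), using TMM, filterByExpr (minimum count 10, minimum total 15), quasi-likelihood tests, 2-sided, and Benjamini-Hochberg adjustment over all genes tested at 0.05, unpaired. Levels are CPM with TMM factors over all libraries. The test was checked on simulated data. Alternatives were RLE scaling, no filter, all libraries in 1 fit, a replicate block, DESeq2 1.42.0, and leaving out libraries. Same-numbered aged DP and DN libraries deviated together (correlations 0.186 to 0.413 in 5 of 5 pairs, 4 matching best by number), a hint from the data that those numbers pair samples. Values given for aged DP over DN are from the unpaired fit. With the replicate number as a block, the same 6 members were called higher there. Genes named are the 3 highest per kilobase in each type, the called members with the largest changes, Hist1h1c and Hist2h2be, and the head-to-head pair. Others with values (Hist1h1a, Hist1h4c, Hist1h4j, Hist1h4k, Hist1h2be and Hist1h2bj among them) were added where a call or contrast needed them. Members and lists were chosen with earlier results of these data known.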

Additional observations from a re-analysis of the deposited data

Results flagged for a closer look

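Of 112 groups of 5 libraries examined (10 called genes and 6 sums), 10 held a library far from the other 4, and chance flags about 1 in 20. Aged DN library 1 had a summed histone level of 22.5 CPM, against 54.3 to 66.3 in the others. WT DN library 2 had an H2A sum of 39.0 CPM, against 22.3 to 26.9, and Hist1h1c at 17.9 CPM, against 9.11 to 10.9. Aged DP library 5 had an H4 sum of 17.8 CPM, against 11.6 to 12.97. KO DP library 2 had Hist3h2a at 67.1 CPM, against 19.3 to 28.9. KO DP library 3 had Hist1h1a at 2.88 CPM, against 1.12 to 1.62, and Hist1h2ac at 7.49 CPM, against 1.59 to 3.29. Aged DN library 5 had Hist1h1a at 0.849 CPM, against 0.141 to 0.345. Young DP library 3 had Hist1h2ac at 1.54 CPM, against 3.29 to 3.58, and Hist1h2be at 1.12 CPM, against 1.66 to 1.87.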

How the results depend on the processing

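Counts of called histone genes for DP over DN were 6, 6 and 5 in young, aged and WT cells. The count moved by more than 1.5 times in these settings: in WT DP over WT DN, 8 without WT DN 2; in aged over young DN, 1 (Hist1h4j, lower) by DESeq2 and 1 in the fit over all 35 libraries, against 0; in KO over WT DP, 1 (Hist1h1c, lower) by DESeq2 and 1 without KO DP 2, against 0; in WT over young DN, 0 in the fit over all libraries, against 2; and in the cohort by stage test, 1 (Hist3h2a) by DESeq2, against 0. With the replicate block the count was 1 in WT over young DN (Hist1h2ac), against 2, 6 in young, 6 in aged and 7 in WT DP over DN (5 higher and 2 lower, Hist1h2ac and Hist1h4i), and 0 in every other comparison. By the rule that every same-numbered pair correlate over 0.1, aged DP and DN alone met it. In young DP and DN all 5 correlations were positive, from 0.0520 to 0.267, with 3 over 0.1 and 4 of 5 pairs matching best by number, a hint from the data. Leaving out 1 library at a time, counts ran from 5 to 7 in young, 4 to 6 in aged and 5 to 8 in WT DP over DN, 0 to 1 in KO over WT DP, 2 to 3 in WT over young DN, and stayed at 0 in the other 5 comparisons. Called lower among them were up to 1 member in young, 0 in aged and up to 2 in WT DP over DN. Log2 changes that turned sign were none of them called. Without the libraries that stand apart they were Hist3h2ba in aged over young DN (0.11), Hist3h2a in KO over WT DP (-0.10), Hist1h1c in WT over young DN (-0.076) and Hist3h2ba in the age by stage test (-0.11). Leaving out 1 library gave ranges of -0.31 to 0.11 for Hist3h2ba in aged over young DN, -0.10 to 0.54 for Hist3h2a and -0.50 to 0.0071 for Hist3h2ba in KO over WT DP, and -0.076 to 0.22 for Hist1h1c and -0.00076 to 0.10 for Hist2h2be in WT over young DN. In the age by stage test they were -0.10 to 0.13 for Hist3h2a, -0.21 to 0.24 for Hist3h2ba and -0.33 to 0.079 for Hist1h1c. The cause of these moves was not tested. Summed levels under RLE scaling and plain CPM moved by less than 1 SD. Under the filter on low counts 23 members were tested in at least 1 comparison. The others were the 14 under 100 counts in all, with Hist1h4a, Hist1h4f and Hist1h2bb.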
